A study of Mus musculus with 14 samples.

Results

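UTX regions outside H3K27ac numbered 6913 of the 24490 UTX regions in bone marrow progenitors. They were the regions, merged from the enriched stretches (islands) of 2 UTX ChIP-seq libraries, that met no island of any of the 4 H3K27ac libraries and no island of the IgG library. Of the remaining UTX regions, 17327 met H3K27ac, 6 of them together with IgG, and 256 met IgG in all. Of the 256, 240 had an island in UTX library 1 and 42 in UTX library 2, so the IgG filter acted mostly on library 1. Only 246 of the 6913 regions (3.56%) had an island in both UTX libraries, while 2799 were in library 1 only and 3868 in library 2 only. The regions were chosen by their UTX, H3K27ac and IgG islands, so those values are given as a description. H3K27me3 was not used in the choice.

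The cells were bone marrow progenitors left after lineage depletion (Lin-) of C57BL/6 mice. H3K27me3 and H3K27ac were each measured in 2 libraries of mice labelled UTX KO (KO) and 2 libraries of mice labelled UTX WT (WT), UTX in 2 WT libraries and IgG, labelled as a control for BCOR, in 1 WT library. No UTX library of KO cells was analysed here, and how Kdm6a was removed, the age of the mice and whether libraries came from separate animals are not given in the sources used here, so p-values measure the spread between libraries only.

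UTX, encoded by Kdm6a, is a demethylase that removes methyl groups from lysine 27 of histone H3, and it is a subunit of the COMPASS complexes that act at enhancers and promoters. H3K27ac marks active promoters and enhancers. H3K27me3 is laid down by Polycomb repressive complex 2 and covers, in blood progenitors, the silent CpG-rich promoters of genes that belong to other tissues. A UTX region without H3K27ac is thus a place where a UTX library had an island away from the mark of active chromatin. Whether UTX itself was bound there was not tested, as no UTX library of KO cells was analysed here.

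Reads in islands numbered 816567 in UTX library 1 and 1834418 in UTX library 2, against 154029 in the IgG library. H3K27me3 islands held 2347442 and 2507004 reads in KO and 2743508 and 2455803 reads in WT. H3K27ac islands marked 8 of 8 progenitor genes (Kit, Cd34, Meis1, Runx1, Mecom, Cebpa, Mpo, Myb) in both WT libraries and left 7 of 10 genes of other cell types unmarked in both, with small islands of 138 and 169 reads at Cdh5 in WT, and Ms4a1 marked in WT library 2 only. At Kdm6a, H3K27ac islands held 181 and 185 rpm (reads per 1000000 island reads) in KO and 197 and 102 rpm in WT, which overlap, and islands over a whole gene do not show a deletion within it.

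The sequences printed here are the 250 bases before the annotated start of 4 genes. Each start lay in a UTX region outside H3K27ac that was found in both UTX libraries and carried H3K27me3 in all 4 libraries. Most UTX regions outside H3K27ac held no promoter. Bbs1, whose start lay in a region found in both UTX libraries without any H3K27me3 island, is shown beside them. The sequences are from RefSeq, build GRCm38.p6, on the strand of the gene, with each CG dinucleotide in capitals. Pou4f1 lies on the minus strand (chr14:104468000-104468249), Lifr on the plus strand (chr15:7129322-7129571), Lhx2 on the plus strand (chr2:38351058-38351307), Foxd1 on the plus strand (chr13:98353995-98354244) and Bbs1 on the minus strand (chr19:4906628-4906877).
Pou4f1: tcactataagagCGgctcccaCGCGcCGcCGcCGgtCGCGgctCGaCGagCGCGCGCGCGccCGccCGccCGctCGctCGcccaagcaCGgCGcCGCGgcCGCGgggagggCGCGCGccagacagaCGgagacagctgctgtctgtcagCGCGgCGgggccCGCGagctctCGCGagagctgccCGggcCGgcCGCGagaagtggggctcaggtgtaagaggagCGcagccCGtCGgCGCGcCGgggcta
Lifr: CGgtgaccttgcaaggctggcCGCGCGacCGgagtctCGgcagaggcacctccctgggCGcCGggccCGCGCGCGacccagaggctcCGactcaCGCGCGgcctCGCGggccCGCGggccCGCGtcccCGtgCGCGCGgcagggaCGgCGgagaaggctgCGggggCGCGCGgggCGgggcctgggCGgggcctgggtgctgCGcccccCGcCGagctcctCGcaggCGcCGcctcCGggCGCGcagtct
Lhx2: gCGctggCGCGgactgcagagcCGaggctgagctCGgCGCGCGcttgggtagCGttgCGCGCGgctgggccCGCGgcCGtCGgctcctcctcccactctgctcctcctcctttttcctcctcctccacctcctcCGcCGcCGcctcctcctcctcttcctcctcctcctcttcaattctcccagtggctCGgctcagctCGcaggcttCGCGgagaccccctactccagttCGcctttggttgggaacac
Foxd1: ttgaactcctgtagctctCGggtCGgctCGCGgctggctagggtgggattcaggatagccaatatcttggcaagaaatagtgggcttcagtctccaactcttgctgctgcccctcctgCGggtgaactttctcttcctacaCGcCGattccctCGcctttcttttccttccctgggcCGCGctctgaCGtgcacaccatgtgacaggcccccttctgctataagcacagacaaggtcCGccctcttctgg
Bbs1: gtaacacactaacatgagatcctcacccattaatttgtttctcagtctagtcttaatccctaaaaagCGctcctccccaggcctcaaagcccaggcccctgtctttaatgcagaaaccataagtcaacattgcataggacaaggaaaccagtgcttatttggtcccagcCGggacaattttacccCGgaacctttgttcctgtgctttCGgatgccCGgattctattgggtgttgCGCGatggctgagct
CG dinucleotides numbered 47 in the stretch of Pou4f1, 43 in that of Lifr, 24 in that of Lhx2 and 12 in that of Foxd1, against 7 in that of Bbs1. The UTX regions over these starts had 35 and 48 reads in UTX libraries 1 and 2 at Pou4f1, 79 and 75 at Lifr, 28 and 60 at Lhx2 and 67 and 47 at Foxd1, against 40 and 71 at Bbs1, so the values overlap. The GC content was 78.0%, 82.4%, 68.4% and 57.2% in the same order, against 48.4% for Bbs1. Bbs1 is a single example, and few CG were also found with H3K27me3. In the 300 bases from 250 before to 50 after the start, Foxd1 held 15 CG and Bbs1 12. Lhx8, with UTX in both libraries and H3K27me3 in all 4, held 4.

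Most UTX regions outside H3K27ac were weak. In library 1 their islands had a median of 28 reads, against 50 reads in UTX regions that met H3K27ac, and in library 2 a median of 49 reads, against 92 reads. The 246 regions found in both libraries had medians of 35 reads in library 1 and 72.5 reads in library 2. All 6913 regions together held 12.1% of the island reads of library 1 and 12.7% of those of library 2, while the 246 held 1.79% and 1.65%. Their median width was 1200 bp, that of the 246 was 1400 bp, and that of regions meeting H3K27ac was 1600 bp.

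At the same read number, an island outside H3K27ac was less often found again in the other UTX library. Of library 1 islands with 25 to 34 reads, 5.67% outside H3K27ac were also in library 2, against 42.6% of those meeting H3K27ac. With 100 or more reads the shares were 73.5% of 34 islands outside H3K27ac and 99.3% of 1221 islands meeting it. In library 2 the shares at 100 or more reads were 48.9% of 178 islands outside H3K27ac and 81.2% of 6347 islands meeting it. The share of islands with H3K27me3 in all 4 libraries moved with the reads outside H3K27ac and not where H3K27ac was met. Outside H3K27ac it was 13.0% of library 1 islands with 25 to 34 reads, 50.0% with 50 to 74 reads, 76.5% with 75 to 99 reads (17 islands) and 52.9% with 100 or more, whereas it stayed between 2.05% and 5.06% in islands meeting H3K27ac.

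**Figure D1:**
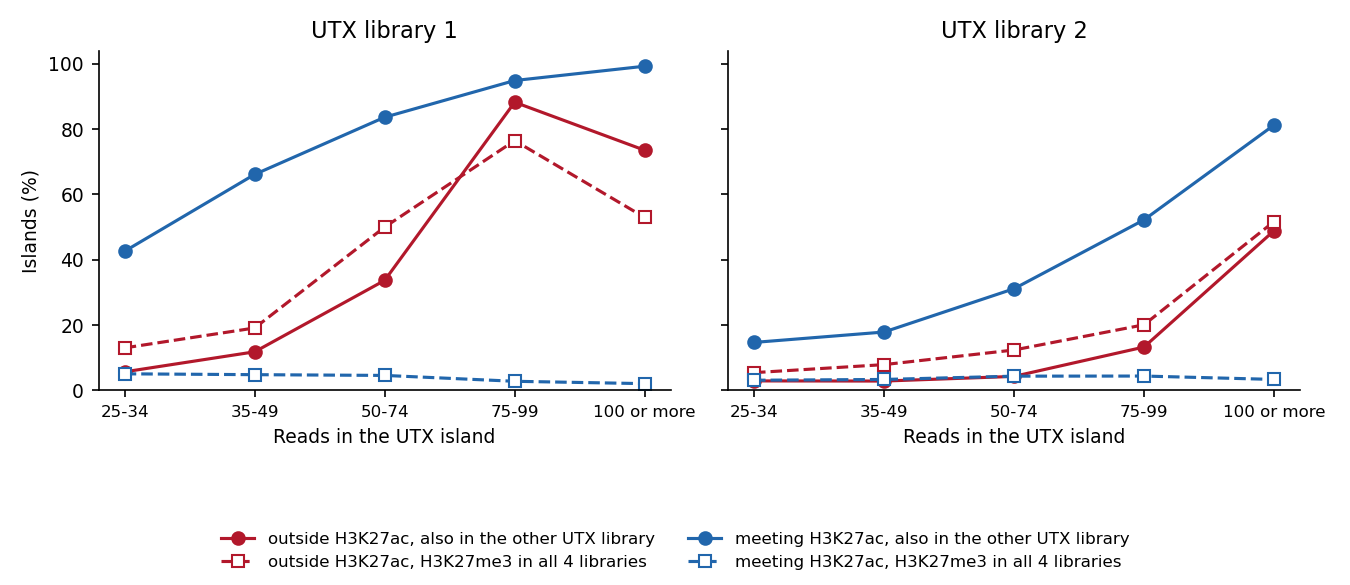
Share of UTX islands (y axis, percent) by the number of reads in the island (x axis), for islands outside H3K27ac (red) and meeting H3K27ac (blue), in UTX library 1 (left) and library 2 (right). Filled circles give the share also found in the other UTX library and open squares the share with H3K27me3 in all 4 libraries. Red squares climb to 76.5% in library 1 and 51.7% in library 2, while blue squares stay at or below 5.06%.

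The rule leaves out a region at 1 base of overlap with H3K27ac. Just inside, regions at Clasp1, Klhl20, Rxra, Ppp1r1c and nearest to Arl5b touched an H3K27ac island with 0 bases between them. Just outside, regions at Slco5a1 and Gsn and nearest to Klf7, Glrp1 and Agps overlapped one by 200 bp. The median distance of the 6913 regions to the nearest H3K27ac island was 25200 bp, and 345 lay within 1 kb of one. Of the 3 farthest, all nearest to the protocadherin gene Pcdh9 on chromosome 14, the extreme lay 4678000 bp away.

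Among the regions found in both libraries the strongest were few and of several kinds. A region 1640 bp from 9230019H11Rik (chr10:3111201-3118200, mm10) had 1328 and 2033 reads in UTX libraries 1 and 2, the highest of all, and met an H3K27me3 island in KO library 1 only. Next came a region of 800 bp between genes, 60617 bp from Axin2 (chr11:109011401-109012200), with 580 and 584 reads and with H3K27me3 islands of 258 and 271 reads in KO and 235 and 353 reads in WT. Inside Cdk8, which encodes a kinase of the Mediator complex, a region of 400 bp (chr5:146261001-146261400) had 370 and 346 reads and no H3K27me3 island. At an end of Nmi, an interferon-responsive gene, a region of 2400 bp (chr2:51946001-51948400) had 126 and 822 reads and H3K27me3 islands in all 4 libraries, of 106 and 69 reads in KO and 124 and 92 reads in WT. Ends of other genes held strong regions too. At Lars2, the mitochondrial leucyl-tRNA synthetase, a region of 400 bp had 319 and 294 reads and H3K27me3 islands of 400 bp in both KO libraries and in WT library 2. These islands had 86.3 and 65.8 rpm per kb in KO and 57.0 in WT library 2. At Cacna2d1, a calcium channel subunit, a region of 2400 bp had 210 and 240 reads and no H3K27me3 island. At Ccdc177 a region of 3200 bp had 55 and 154 reads and lay in H3K27me3 islands of 24800 and 26000 bp in KO and 19800 bp in each WT library. These strong regions were thus found with broad H3K27me3, with narrow H3K27me3 and without it. Those near Axin2, in Cdk8 and at Lars2 were narrow and dense, with 725, 925 and 797.5 reads per kb in UTX library 1. Nmi had 52.5, Cacna2d1 87.5 and Ccdc177 17.2. H3K27me3 islands near Axin2 had 183 and 67.6 rpm per kb in KO and 47.6 and 20.5 in WT. They were 600 and 1600 bp wide in KO and 1800 and 7000 bp in WT, so these densities depend on island width. Over the whole H3K27me3 region there, the log2 fold change, KO over WT, was -0.18 (edgeR adjusted p = 0.906). Medians of all H3K27me3 islands were 10.5 and 7.82 in KO and 6.85 and 7.56 in WT. Gene names give position only, and whether UTX was bound at the dense sites was not tested.

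Strength did not guarantee a second finding. The strongest region of library 1 alone (chr2:98666201-98667400, far from any protein-coding gene, nearest to Lrrc4c) had 1496 reads there, no island in library 2 and H3K27me3 islands of 2648 and 1439 reads in KO and 1336 and 1254 reads in WT. That region was dense too, with 1247 UTX reads per kb. Its H3K27me3 islands had 217 and 478 rpm per kb in KO and 406 and 426 in WT. Whether UTX was bound there was not tested. The strongest of library 2 alone (chr4:3079201-3085000, nearest to Vmn1r2) had 460 reads. At an end of Igf2bp3, which encodes a fetal RNA-binding protein, a region of library 2 alone (chr6:49215201-49219600) had 239 reads and lay in broad H3K27me3 islands of 23400 and 25200 bp in KO and 22000 and 19200 bp in WT.

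**Figure D2:**
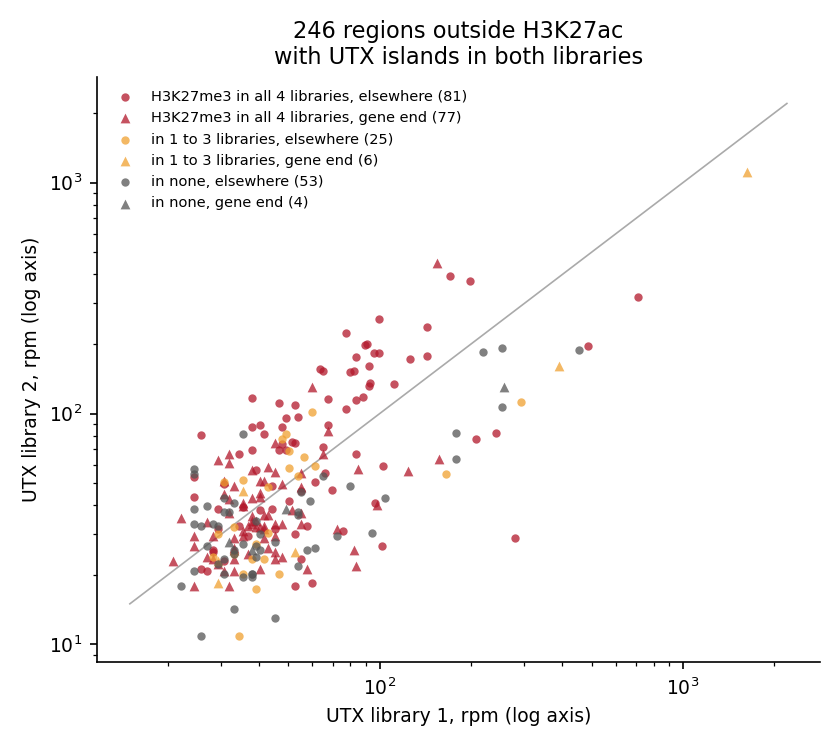
UTX signal of the 246 regions outside H3K27ac found in both UTX libraries, as reads per 1000000 island reads in library 1 (x axis) and library 2 (y axis), both on log axes, with the line of equal values in grey. Colours give the number of H3K27me3 libraries with an island (red 4, orange 1 to 3, grey none), triangles mark gene ends and circles other positions. Of the triangles 77 are red, 6 orange and 4 grey.

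H3K27me3 was present at most regions found in both UTX libraries, in KO and WT alike. Of the 246 regions, 176 and 169 met an H3K27me3 island in the KO libraries (71.5% and 68.7%), against 170 and 179 in the WT libraries (69.1% and 72.8%). The means were 70.1% ± 2.01 in KO and 70.9% ± 2.59 in WT (SD, n = 2 each), and the libraries of both genotypes overlap. In all, 158 of the 246 (64.2%) met H3K27me3 in all 4 libraries and 57 in none.

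Regions found in 1 UTX library met H3K27me3 far less often, at 13.3% and 13.0% in KO and 13.0% and 13.5% in WT. The difference between the 246 and the 6667 regions averaged 57.3 percentage points with an SD of 1.72 over the 4 libraries and was positive in 4 of 4 (two-sided exact sign-flip permutation test, p = 0.125, the smallest that 4 libraries can give). Of the 6667, 659 (9.88%) met H3K27me3 in all 4 libraries and 5477 in none. UTX regions that met H3K27ac and were in both UTX libraries met H3K27me3 at 6.29% and 7.45% in KO and 7.31% and 9.60% in WT. The 256 UTX regions that met IgG, which are no part of the 6913, did so at 81.25% and 65.6% in KO and 68.75% and 75% in WT, a range that holds the values of the 246 regions. IgG islands that met neither H3K27ac nor UTX did so at 6.39% and 4.89% in KO and 5.996% and 6.39% in WT.

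Position separated the regions further. At gene ends, taken as the 2 kb before and after each annotated end of a protein-coding gene, lay 87 of the 246 regions (35.4%) and 850 of the 6667 (12.7%), against 54.0% of UTX regions meeting H3K27ac. Of the 87, 93.1% and 92.0% met H3K27me3 in KO and 92.0% and 93.1% in WT. Of the 850, 51.4% and 51.8% did in KO and 51.1% and 54.0% in WT. Away from gene ends, regions of both UTX libraries met H3K27me3 at 53.7% and 52.4% in KO and 51.2% and 54.9% in WT inside genes (82 regions), and at 66.2% and 59.7% in KO and 62.3% and 68.8% in WT between genes (77 regions). Regions found in 1 UTX library inside or between genes met H3K27me3 at no more than 8.26% in any of the 4 libraries. Only the outer ends of a gene counted as gene ends, so a start further in counted as inside the gene. The class inside genes thus held promoters too, among them those of Lifr, Lhx2, Ebf3 and Tmcc3.

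**Figure D3:**
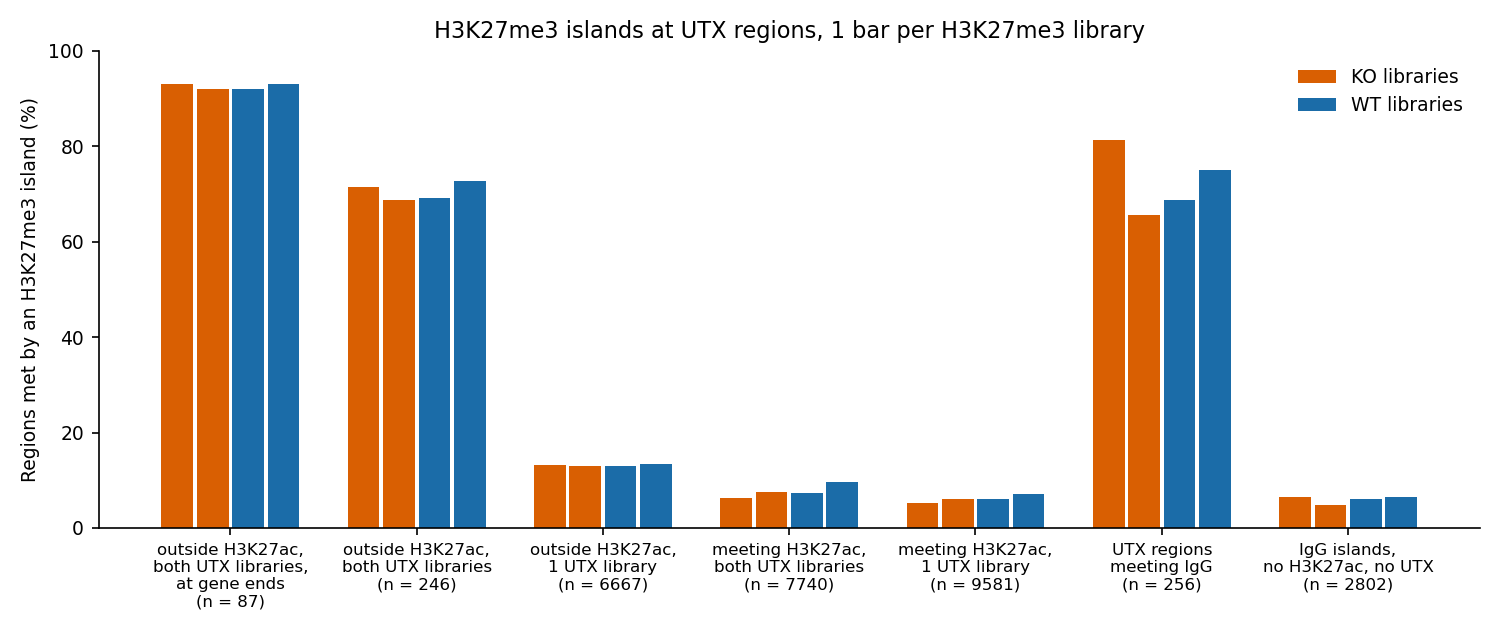
Share of regions met by an H3K27me3 island (y axis, percent) in each H3K27me3 library, with 1 bar per library, for UTX regions outside H3K27ac (3 sets), UTX regions meeting H3K27ac (2 sets), UTX regions meeting IgG and IgG islands. KO libraries are orange and WT libraries blue. The bars of regions found in both UTX libraries lie between 68.7% and 72.8%, those of regions in 1 UTX library between 13.0% and 13.5% and those of UTX regions meeting IgG between 65.6% and 81.25%.

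The H3K27me3 islands around these regions were of different widths. At gene ends, islands met by the regions of both UTX libraries had median widths of 10400 and 12200 bp in KO and 12900 and 10800 bp in WT, wider than the medians of all H3K27me3 islands, 3800 and 5200 bp in KO and 4800 and 3400 bp in WT. Away from gene ends the medians were 2800 and 3400 bp in KO and 3700 and 2800 bp in WT, and 36.1% and 33.7% of the islands in KO and 32.2% and 43.4% in WT were 2 kb wide or less. The UTX regions that met IgG were narrow sites of a median 600 bp, and the H3K27me3 islands on them had a median of 600 bp in all 4 libraries. The part of such narrow, strong sites in the H3K27me3 share away from gene ends was not tested. At gene ends at most 4.94% of the islands, in KO library 1, were 2 kb wide or less.

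Few of these regions met a promoter, and the promoters they met were mostly rich in CG. A promoter window here is the 300 bases from 250 before to 50 after a RefSeq start. Such a window was met by 45 of the 246 regions of both UTX libraries (18.3%) and by 274 of the 6667 of 1 library (4.11%). The 54 windows met by regions of both UTX libraries held a median of 30.5 CG dinucleotides, the 314 windows met by regions of 1 library held 22, and the 10635 windows met by UTX regions with H3K27ac held 23, beside 7 for all 32851 windows. Of the 54 windows 48 (88.9%) held 15 or more, against 77.2% of the windows with UTX and H3K27ac, 81.0% of the 525 of these with H3K27me3 in all 4 libraries and 34.6% of all windows. Among regions of 1 UTX library, the 231 windows with H3K27me3 in all 4 libraries held a median of 27 and the 61 windows with H3K27me3 in none held a median of 3.

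**Figure D4:**
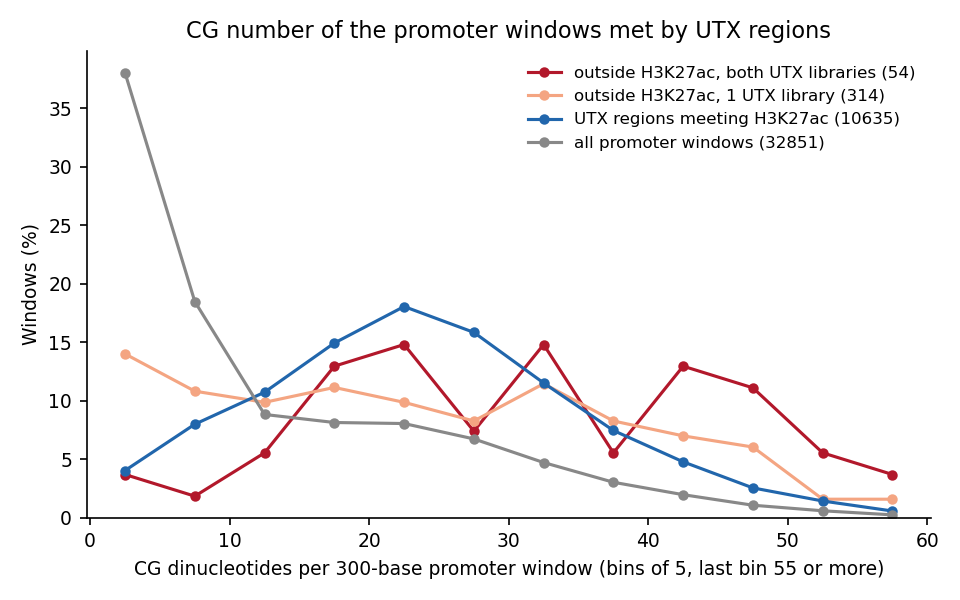
Distribution of the number of CG dinucleotides per promoter window of 300 bases (x axis, bins of 5) as a share of the windows of each set (y axis, percent). Windows met by UTX regions outside H3K27ac and in both UTX libraries (dark red) have a median of 30.5 and all promoter windows (grey) a median of 7.

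Letters of known binding motifs were counted on both strands of the same windows. The ETS core spelled CCGGAAG was in 0 of the 54 windows and in 2.87% of the 314, while it was in 20.4% of the windows with UTX and H3K27ac, in 5.90% (31) of the 525 of these with H3K27me3 in all 4 libraries and in 8.86% of all windows. The GATA motif spelled AGATAA was in 5.56% of the 54 windows (3 windows, at Nkx6-2, Lhx8 and AI606473, the last 2 on overlapping stretches) and in 24.6% of the 61 windows of 1-library regions without H3K27me3, against 5.90% of the windows with UTX and H3K27ac and 11.2% of all windows. These letters are a description and say nothing on binding. The sets also differed in base content. The median GC content was 70.3% in the 54 windows, 46.7% in the 61, 62.3% in those with UTX and H3K27ac and 52.7% in all windows. How far base content bears on the motif shares was not tested.

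A CG-rich promoter outside H3K27ac mostly carried H3K27me3 whether or not a UTX island was called there. Among promoter windows that met neither H3K27ac nor IgG and held 15 or more CG, those with a region of both UTX libraries (48 windows) met H3K27me3 at 95.8% to 97.9% over the 4 libraries and those with a region of 1 UTX library (205 windows) at 92.7% to 98.0%, against 79.4% to 83.4% for those with no UTX island (2063 windows). With under 15 CG the shares were 66.7% of 6 windows for both UTX libraries and 40.4% to 45.0% of 109 windows for 1 UTX library, against 12.6% to 17.4% of 15339 windows with no UTX island. Within both CG classes the windows with a UTX region had a higher share than those without one in each of the 4 libraries.

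Transcription factor genes of embryonic development, known targets of Polycomb, were counted as a list of 63. Of these 21 (33.3%) had a UTX region outside H3K27ac at an end or in the body, beside 13.9% of all 21887 protein-coding genes, and 3, among them Tbx2 and Lhx2, had one in both UTX libraries, beside 0.818% of all genes. UTX with H3K27ac was at 1 of the 63 genes, beside 50.4% of all genes. The list was chosen with earlier results of these data known and has no test of its own here. All 29 of its regions met H3K27me3 in all 4 libraries, beside 817 of all 6913 regions (11.8%). The list was made of Polycomb targets, so this share was largely set by its choice and is no result on UTX. The 29 are not separate cases either, since those of Tbx2, and those of Dlx1 and Dlx2, lay in shared H3K27me3 islands. Among the 29, Tbx2, a T-box repressor of heart and limb development, had 5 regions, of which 1 was in both UTX libraries with 23 and 54 reads. Hand1, a basic helix-loop-helix factor of heart and placenta, had 112 reads in UTX library 2 only, and Dlx1, a homeobox factor of forebrain interneurons, had 71 reads in library 1 only.

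Hox genes, the homeobox factors that set body position, had such a region at 8 of 39 genes (20.5%), beside 13.9% of all genes. All of these regions were from 1 UTX library. UTX with H3K27ac was also at 8 of the 39 genes, beside 50.4% of all genes. The region at Hoxa13 had 128 reads and that shared by Hoxa10 and Hoxa11 had 106 reads, both in library 2 only, and that at Hoxd8 had 55 reads in library 1 only. All 6 Hox regions met H3K27me3 in all 4 libraries, beside 817 of all 6913 regions (11.8%). Regions of the same Hox cluster lay in the same H3K27me3 islands, so they are not separate cases.

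Lists of genes that act in progenitors were counted in the same way. Of 15 stem and progenitor genes 8 had a UTX region outside H3K27ac (Mecom, Meis1, Hlf, Slamf1, Mllt3, Myct1, Angpt1 and Tek), 2 of them at a gene end. Of 26 COMPASS, Polycomb and coactivator genes 9 did, 0 at a gene end, beside 13.9% of all genes. UTX with H3K27ac was at 10 of the 15 genes and 25 of the 26. These counts take no account of gene length, and Kmt2c alone held several regions. Each of the 12 regions of the first list and 17 of the second was in 1 UTX library and met no H3K27me3 island. Of all 6913 regions, 5534 (80.1%) met no H3K27me3 island and 6667 were in 1 UTX library. Within Kdm6a itself lay 2 regions of 31 and 32 reads, in library 1 only. Of 24 GATA and erythroid genes 3 (12.5%), Gata1, Ermap and Tfrc, had 1 region each, with 42, 82 and 84 reads in library 2. UTX with H3K27ac was at 23 of the 24. No granulocyte and monocyte gene (0 of 20), B cell gene (0 of 14) or mast cell gene (0 of 8) had a region outside H3K27ac. Beside 13.9% of all genes, these lists are too small to show a difference between lineages.

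For the other lists the share of all genes with such a region, 13.9%, is the background. A region was at 1 of 22 ETS family genes (Erg), 2 of 13 megakaryocyte genes (Gp5 and Thbs1), 1 of 14 T and NK cell genes (Bcl11b), 1 of 20 AP-1, NF-kB and interferon genes (Relb) and 3 of 20 ribosomal and housekeeping genes (Hprt, Sdha and Ywhaz). Markers of stromal and endothelial cells had such regions at 2 of 10 genes. At Col1a1, the collagen of bone and connective tissue, the region was in both UTX libraries (27 and 43 reads) and met H3K27me3 in all 4 libraries. The remaining gene, Lepr, the leptin receptor, had 52 reads in library 2 only.

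Between KO and WT the H3K27me3 at these regions did not pass the test of a difference. The share of all 6913 regions that met an H3K27me3 island was 15.4% and 14.96% in KO and 15.03% and 15.6% in WT, a difference of -0.14 percentage points, KO minus WT (two-sided exact permutation test over libraries, p = 0.667, with 0.333 the smallest that 2 against 2 libraries can give). The sign turned without KO library 2, when the difference was 0.0579, and without WT library 2, when it was 0.130. H3K27me3 was lost, meaning met in both WT and neither KO library, at 19 of the 6913 regions (0.275%), beside 0.735% of all UTX regions, and gained in the reverse sense at 18 (0.260%), beside 0.335%. Of the 246 regions of both UTX libraries, 0 lost and 0 gained it.

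Read counts were tested as well. Of the 6913 regions, 972 lay on 865 of the 6771 H3K27me3 regions with an island in all 4 libraries, and edgeR called 0 of the 865 higher in KO and 0 lower, beside 0% and 0.0148% of all 6771. At an unadjusted p under 0.05 there were 24 higher and 15 lower of the 865, beside 3.84% and 3.8% of all 6771, and DESeq2 called 2 higher and 1 lower, beside 0.236% and 0.251% of all 6771. The median log2 fold change, KO over WT, was 0.01 over the 865 regions and -0.02 over the 158 with UTX in both libraries, beside -0.00 over all 6771. The counts cover the whole H3K27me3 region, which was 70.2 kb wide at Lhx2, and not the UTX region alone.

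At Lhx2, a LIM-homeobox factor of eye and forebrain, the H3K27me3 region of 70.2 kb had 1373 and 1201 counts per 1000000 (CPM) in KO and 1291 and 1513 CPM in WT. The libraries overlap, with a log2 fold change of -0.12 (SE 0.15, edgeR adjusted p = 0.871). At Foxd1, a forkhead factor of kidney stroma and retina, it was 700.2 and 721 CPM in KO and 702 and 912 CPM in WT. At Pou4f1, a POU factor of sensory neurons, it was 587 and 619 CPM in KO and 403 and 588 CPM in WT, with a log2 fold change of 0.28 (SE 0.19, edgeR adjusted p = 0.766). Lifr, the receptor of leukaemia inhibitory factor, had 419 and 468 CPM in KO and 393 and 425 CPM in WT. Neither Foxd1 nor Lifr passed the test, with edgeR adjusted p of 0.811 and 0.886. Over the 20 named regions the edgeR adjusted p ran upward from 0.608, at A230072I06Rik.

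The 3 H3K27me3 regions that DESeq2 called and edgeR did not are named because there were so few, a choice made after their values were seen. At Celsr3, a planar cell polarity cadherin with UTX in both libraries (25 and 38 reads), H3K27me3 was 215 and 232 CPM in KO and 405 and 375 CPM in WT, with a log2 fold change of -0.81 in DESeq2 (adjusted p = 0.0435), where edgeR gave an adjusted p of 0.352. At Zbtb46, a transcription factor of dendritic cells with UTX in library 2 only (63 reads), H3K27me3 was 331 and 423 CPM in KO and 152 and 186 CPM in WT, with a log2 fold change of 1.16 in DESeq2 (adjusted p = 0.00373) and an edgeR adjusted p of 0.295. At Arhgef10l, a guanine nucleotide exchange factor, it was 101 and 77.7 CPM in KO and 19.9 and 17.8 CPM in WT, with a log2 fold change of 2.24 in DESeq2 (adjusted p = 0.0047) and an edgeR adjusted p of 0.295. In none of the 3 do the KO and WT libraries overlap, which is no separate support, since they were named for their DESeq2 calls.

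**Figure D5:**
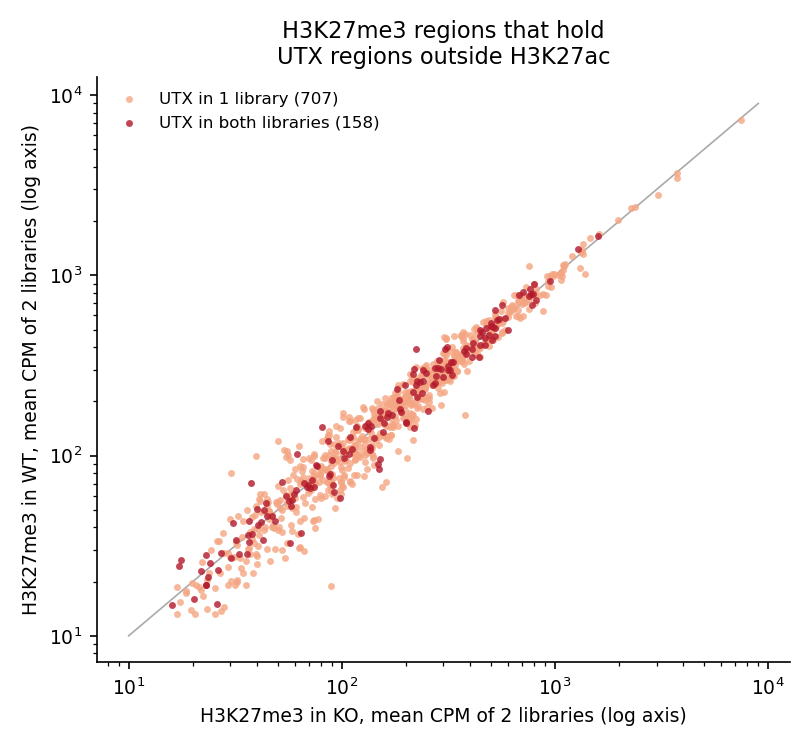
H3K27me3 signal of the 865 H3K27me3 regions that hold UTX regions outside H3K27ac, as the mean CPM of 2 KO libraries (x axis) and of 2 WT libraries (y axis), both on log axes, with the line of equal values in grey. Dark red points hold a UTX region found in both UTX libraries (158) and light points one found in 1 library (707). Points of both kinds lie along the line, with KO medians of 159.9 and 162 CPM and WT medians of 153 and 161 CPM for the dark and the light points.

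H3K27ac next to these regions was called changed at shares near the background. For 1413 of the 6913 regions a tested H3K27ac region lay within 10 kb, and of the 1339 such H3K27ac regions edgeR called 143 (10.7%) higher in KO and 208 (15.5%) lower, beside 12% and 14% of all 18820 tested. Next to the 246 regions of both UTX libraries it called 6 higher and 7 lower of 56. The median log2 fold change was -0.04 over the 1339, beside -0.00 over all. These counts rest on every library. Without KO library 1 or 2 the higher count was 85 or 75, and without WT library 1 or 2 it was 87 or 84, while the lower count was 135 without WT library 1 and 115 without WT library 2. Counts also depend on the length that islands cover, since per covered length 7 were higher and 30 lower.

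Among those higher in KO, the H3K27ac region 2600 bp from a UTX region of 21 reads (library 1) nearest to Ets1, an ETS factor of lymphoid cells, had 86.9 and 112 CPM in KO and 25.4 and 16.5 CPM in WT (log2 fold change 2.27, SE 0.22, edgeR adjusted p = 0.000831). At Ikzf3, which encodes the lymphoid factor Aiolos, it was 268 and 299.9 CPM in KO and 85.3 and 82.4 CPM in WT. That H3K27ac region was 44.8 kb wide, also met Mien1 and Grb7 and lay 7600 bp from the UTX region in Ikzf3. Next to a UTX region nearest to Arid1b, a subunit of the BAF remodelling complex, H3K27ac was 28.3 and 39.4 CPM in KO and 6.47 and 6.38 CPM in WT. The Arid1b call was lost per covered length (adjusted p = 0.151). Ets1 and Ikzf3 kept the call under that setting. The largest rises, in order, were next to UTX regions at or nearest to Arid1b, Ets1, Gmpr, Prep, Aldh8a1, Eml5, Ikzf3, Celsr3, Fcrlb and Itpr2. The genes given above were picked from these, and no pattern by cell type was tested.

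Among those lower in KO, the H3K27ac region next to a UTX region at Sox6, a factor of erythroid maturation, had 6.34 and 10.9 CPM in KO and 50.9 and 72.9 CPM in WT (log2 fold change -2.87, SE 0.30, edgeR adjusted p = 0.000991). At Slc14a1, the urea transporter of red cells, it was 8.83 and 17.4 CPM in KO and 79.0 and 96.8 CPM in WT. At Homer1, a synaptic scaffold protein, it was 12.5 and 25.6 CPM in KO and 114 and 159.8 CPM in WT. In each of these the KO libraries lie below both WT libraries, which is no separate support, since the regions were chosen by their edgeR change. The largest falls, in order, were next to UTX regions at or nearest to Phyhip, Dnaja4, Cracd, Zbtb46, Ddx4, Nxpe4, Homer1, Sox6, Slc14a1 and Mpp2. Sox6, Slc14a1 and Homer1 were picked from these, and no pattern by cell type was tested.

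Zbtb46 and Celsr3 came up in both marks, with opposite signs. The H3K27ac region 400 bp from the UTX region in Zbtb46 had 11.1 and 13.0 CPM in KO and 99.9 and 91.5 CPM in WT (log2 fold change -2.99, SE 0.14, edgeR adjusted p = 0.000171), while H3K27me3 there was the higher in KO as given above. The H3K27ac region 2600 bp from that at Celsr3 had 27.5 and 23.7 CPM in KO and 7.999 and 8.35 CPM in WT (log2 fold change 1.64, SE 0.22, edgeR adjusted p = 0.00251), while H3K27me3 there was the lower in KO. The H3K27me3 difference of both was called by DESeq2 and not by edgeR with TMM scaling, and the Celsr3 H3K27ac call was lost per covered length (adjusted p = 0.327).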

How the data were processed

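Per the submitters' processing notes, the authors called islands with SICER against mouse build mm10. The version, gap, threshold and control are not given in the sources used here. Each deposited file lists the islands of 1 library with a count, the whole number of reads per island, and replicates were not pooled. Depth is that of reads within islands on chromosomes 1 to 19, X and Y.

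Islands of both UTX libraries were merged where they overlapped by at least 1 bp, and shares of regions were counted at the same overlap. Gene ends are 2 kb windows at 21887 RefSeq protein-coding genes of GRCm38.p6, the assembly of mm10. Islands of the 4 libraries of a histone mark were merged, and the counts of regions with an island in all 4 were tested with edgeR 4.0.16 (TMM, glmQLFit and glmQLFTest, Benjamini-Hochberg threshold 0.05 over all tested regions) in R 4.3.3, with DESeq2 1.42.0 as an alternative. SE was taken from the F statistic. The edgeR step was tested on simulated data. Exact permutation tests were two-sided.

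The regions and the gene lists were chosen with earlier results of these data known. Named regions followed a rule by strength, position, distance to H3K27ac, list membership and edgeR change, and the few called only by an alternative were named after their values were seen. The promoters printed were chosen likewise. Alternatives covered the filters, window sizes, scalings, library sets and a replicate block. Of the 14 samples 11 libraries were used, while 2 inputs and 1 more IgG library, labelled as a control for UTX, were left out. Some list and marker genes are not reported here.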

Additional observations from a re-analysis of the deposited data

How the results depend on the processing

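The number of UTX regions outside H3K27ac depended mostly on the UTX islands. It was 676 with the strongest islands (at or above the median) of each UTX library, of which 71 were in both libraries, and it ran from 3057 to 7262 when 1 UTX or H3K27ac library was left out, lowest without UTX library 2 and at 4119 without UTX library 1. Requiring both UTX libraries left 246. The mean H3K27me3 share of those 246, 70.5%, was 67.3% when islands had to cover at least 50% of the region and 65.8% with equal numbers of the strongest H3K27me3 islands. It was 73.2% with no IgG filter and 78.9% with the strongest UTX islands, 2 alternatives chosen after seeing the data. The difference in H3K27me3 share, KO minus WT, over all 6913 regions was reversed to 1.24 percentage points with equal numbers of islands, and ran from -0.42 to 0.13 with 1 H3K27me3 library left out. The share at gene ends was 10.4% with 1 kb windows, 21.0% with 5 kb windows and 35.4% for regions of both UTX libraries.

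H3K27me3 regions called at UTX regions outside H3K27ac, 0 in edgeR, numbered 2 higher and 1 lower with DESeq2, 2 higher and 0 lower with scaling to total island reads (Zbtb46 and Arhgef10l), and 1 higher and 1 lower per covered length (near Axin2 and at Ccdc158), and 0 with any 1 library left out. H3K27ac regions next to them, 143 higher and 208 lower, numbered 396 lower with islands in at least 2 libraries, 7 higher and 30 lower per covered length, and 297 higher and 474 lower within 50 kb. With 1 library left out they ran from 75 to 87 higher and from 115 to 149 lower, where the lone library of a group was assumed to vary like the other group. Of the 20 named H3K27ac changes 8 were no longer called per covered length and 1 (Aldh8a1) without WT replicate 1, with no reversal. The cause of these shifts was not tested.

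The labels number the KO and WT libraries 1 and 2 but do not pair them. Deviations of same-numbered libraries from their group means correlated at -0.05 for H3K27me3 and 0.05 for H3K27ac across regions. With the replicate block, 164 H3K27ac regions next to UTX regions outside H3K27ac were higher and 222 lower, and 0 H3K27me3 regions were called.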
